A study of Homo sapiens with 12 samples.

Results

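EP300 KD1 and EP300 KD2 are a pair of stable MCF10AT lines that express different short hairpin RNAs (shRNAs) against the same transcript, and their 6 libraries, of 12 in the study, were set directly against each other here. MCF10AT is an established human mammary epithelial line transformed with HRasG12V, an activated form of HRAS. All 4 groups were the same parental cells, transduced with lentiviral particles, selected with puromycin at 1 µg/ml for 3 days and then kept in normal growth medium: EP300 KD1 and EP300 KD2 with EP300 shRNAs, NS1 and NS2 with non-silencing controls, 3 libraries in each. The labels do not give the hairpin sequences, the vector of any group, the time from selection to harvest, or whether a line is a pool or a clone. Nor is it stated that the 3 replicates of a group were grown as separate cultures. Each p-value therefore covers the variation among the libraries at hand, part or all of which may be technical. Each line's own difference from the other line holds whatever its hairpin, its vector and its history as a culture contributed, and these cannot be told apart in this design. NS2 minus NS1 is given beside the genes as background: it is the difference between a pair of control lines that carry no EP300 hairpin.

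EP300 encodes p300, a lysine acetyltransferase that marks histones at enhancers and promoters and acetylates many transcription factors. It is recruited by factors such as NF-kB, SMADs, HIF1A, p53 and E2Fs, and shares much of its sequence and activity with its paralogue CREBBP. An shRNA is processed like a microRNA and directs cleavage of transcripts that match it, and its seed can also lower transcripts with partial matches, which is why a knockdown is usually made with more than one hairpin.

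The libraries held 31396653 to 45606950 counts. In a principal component analysis of the 6 EP300 shRNA libraries, the first component held 69.6% of the variance and separated the 3 libraries of EP300 KD1 from the 3 of EP300 KD2. Levels below are CPM, read counts scaled to library size with edgeR's TMM factors for composition, and differences are log2 values of EP300 KD2 minus EP300 KD1 from edgeR's quasi-likelihood fit. "Called" means an adjusted p under 0.05 over the 13424 genes tested. "Higher" and "lower" refer to EP300 KD2 relative to EP300 KD1 unless another group is named.

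The target itself was at a similar level in both lines. EP300 (NM_001429, chromosome 22, 41092592 to 41180077, hg38) measured 108, 106 and 108 CPM in the EP300 KD1 libraries and 95.1, 99.9 and 92.3 CPM in those of EP300 KD2, against 171, 177 and 167 in NS1 and 165, 180.3 and 177 in NS2. All 3 EP300 KD2 libraries lay below all 3 of EP300 KD1, and all 6 lay below every control library. Its level in EP300 KD2 was 89.3% of that in EP300 KD1 (log2 difference -0.16 ± 0.036 (SE), adjusted p = 7.64e-04, NS2 minus NS1 0.019). CREBBP, the paralogue, measured 95.4 ± 0.927 and 96.8 ± 4.22 CPM (SD, n = 3), and its difference did not pass the test (log2 difference 0.021 ± 0.031 (SE), adjusted p = 0.576, NS2 minus NS1 0.056). Of 14 acetyltransferases and coactivators tested, EP300 included, 3 were higher and 6 lower (2 higher and 2 lower in NS2 than in NS1), shares near those of all genes given below, with a median of -0.076. Among them KAT2B, the acetyltransferase PCAF, was lower (log2 difference -0.55, adjusted p = 3.65e-06, NS2 minus NS1 -0.00061), NCOA3, a nuclear receptor coactivator, was lower (log2 difference -0.32, adjusted p = 2.40e-08, NS2 minus NS1 0.26), and KAT2A, the PCAF paralogue GCN5, was higher (log2 difference 0.19, adjusted p = 1.52e-05, NS2 minus NS1 -0.10). The log2 difference of the target was smaller in size than the medians of the S phase, NF-kB and mesenchymal lists described below. The p300 protein was not measured here, and the part of the EP300 level in those lists was not tested.

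Many transcripts differed between the lines. Of 13424 genes tested, 8010 were called (59.7%), 3296 of them higher (24.6%) and 4714 lower (35.1%). At 2-fold or more the split was uneven, with 132 genes higher (0.983%) and 620 lower (4.62%). The median absolute difference over all genes was 0.21 on the log2 scale, so most calls were of small differences, and counts for gene lists below are read against these shares. The control lines also differed from each other, at 3697 genes (27.5%), of which 14 were at least 2-fold higher (0.104%) and 160 at least 2-fold lower (1.19%) in NS2, with a median absolute difference of 0.0996. The split between higher and lower calls depended on the scaling: without TMM factors 4124 genes were higher and 3890 lower, 51.5% of calls higher in place of 41.1%, as the median of all genes moved from -0.042 to 0.0096. The medians of the S phase, NF-kB and mesenchymal lists were far larger than that shift.

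The row with the largest ratio was not a protein-coding gene. MIR30A, a microRNA gene (NR_029504, chromosome 6, 71403551 to 71403621, minus strand), had 0, 1 and 1 counts in the EP300 KD1 libraries and 1321, 1092 and 957 in the EP300 KD2 libraries. It had 0 counts in each of the 3 NS1 libraries and 3176, 2954 and 3174 in those of NS2. The libraries thus fell into a near-zero pair of groups, NS1 and EP300 KD1, and a pair with many counts, NS2 and EP300 KD2. The 71-base hairpin is printed because the reads assigned to it separate the libraries by the number in their label, whether or not they carry an EP300 hairpin. Its sequence and that of its mature arms, from RefSeq (GRCh38.p14, 5′ to 3′), are as follows, with the mature arms in capitals in the hairpin and the seed, bases 2 to 8, in capitals in each arm.
MIR30A hairpin: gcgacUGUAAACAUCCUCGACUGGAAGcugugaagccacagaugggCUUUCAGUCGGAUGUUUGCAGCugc
hsa-miR-30a-5p: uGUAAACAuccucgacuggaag
hsa-miR-30a-3p: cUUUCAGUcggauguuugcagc

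In scaled counts EP300 KD2 held 1528 times as much as EP300 KD1 (95% interval 422.7 to 12620, which covers counting error only). NS2 was at least 3570-fold above NS1, taking 3 counts over the NS1 group as its floor, and 3.14 times above EP300 KD2. None of the other 5 rows of the MIR30 family had more than 8 counts in any library. The flanks of the MIR30A hairpin serve as the scaffold of the hairpin in some lentiviral shRNA vectors, as background. Whether the counts came from such a vector or from the genomic locus was not tested, since the files hold counts and not reads. A library made from polyadenylated RNA does not measure the mature microRNA.

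**Figure D1:**
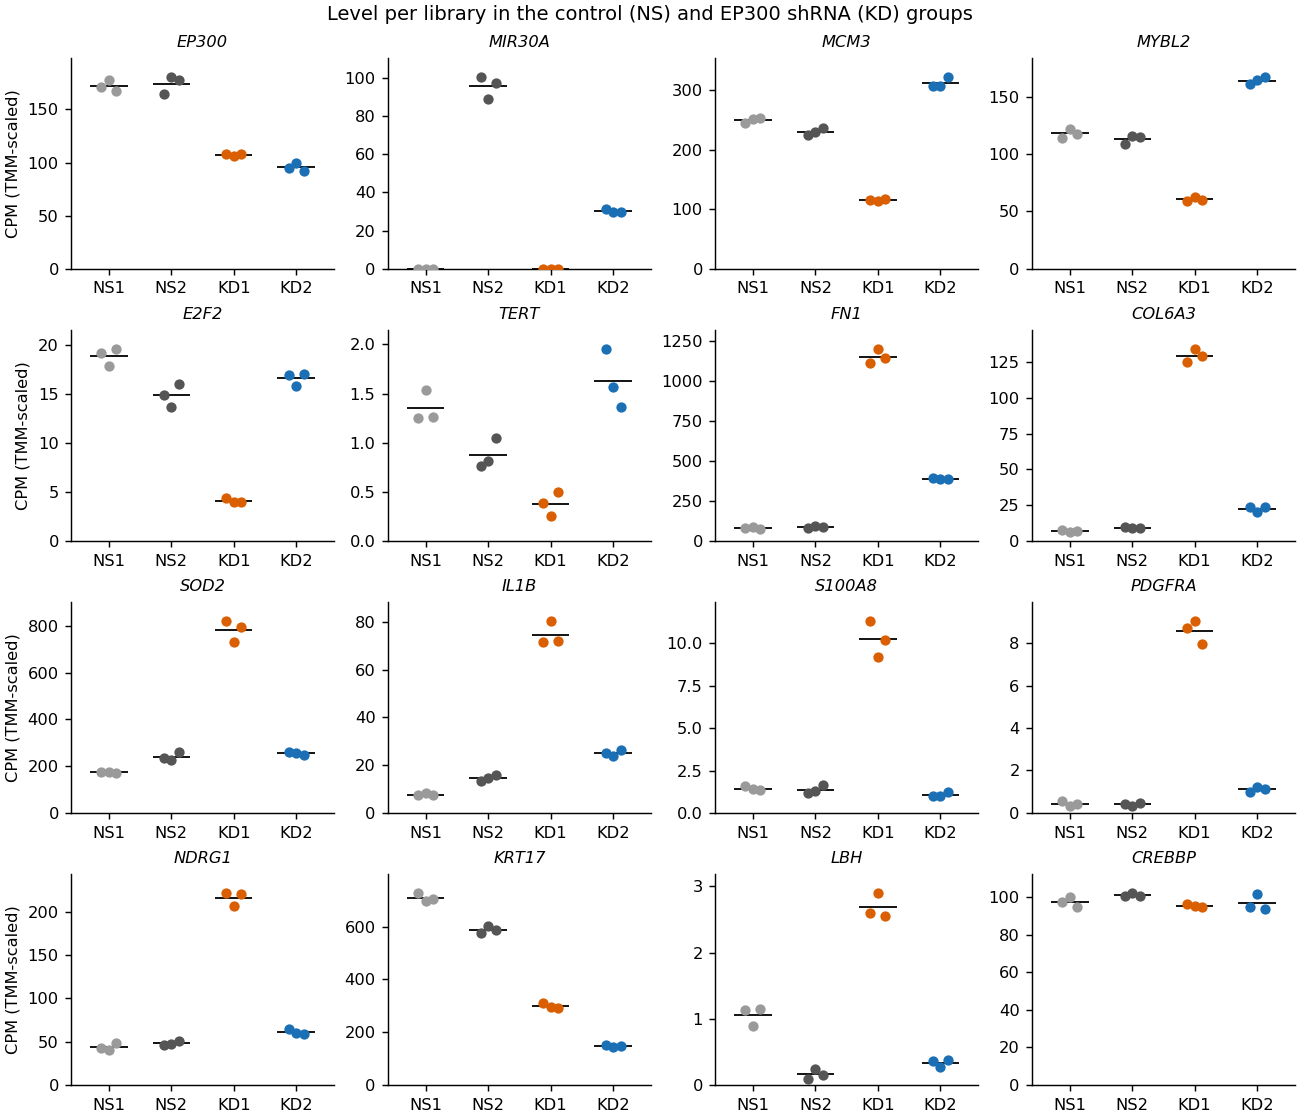
TMM-scaled CPM (vertical axes, linear and starting at 0) of 16 genes in each of the 12 libraries, by group. Points are libraries and bars are the means of 3. EP300 is close in both knockdown lines, and MIR30A is high in NS2 and EP300 KD2 alone. Replication and cell-cycle genes (MCM3, MYBL2, E2F2) are lowest in EP300 KD1, and matrix and cytokine genes (FN1, COL6A3, IL1B) are highest there.

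Genes of DNA replication were higher in EP300 KD2 almost without exception. Of 38 tested members of the S phase and DNA replication list, 37 were higher and 0 lower, against 24.6% higher and 35.1% lower over all genes. The difference was at least 2-fold for 24 of them, and the median was 1.03 against -0.042 for all genes. In the control lines 2 members of this list were higher and 9 lower in NS2, with a median of -0.037. For 36 of the 38, the mean of EP300 KD1 lay below both control means and that of EP300 KD2 above both. Over all genes the share was 11.8%. The lines thus stood on opposite sides of the controls for these genes.

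The replicative helicase MCM2-7 unwinds DNA at origins, and 5 of its subunits were measured with a single row. MCM3 (NM_002388, chromosome 6, 52264015 to 52284742) measured 115, 114 and 117 CPM in EP300 KD1, 307, 306 and 322 in EP300 KD2, 246, 251 and 253 in NS1 and 225, 230.1 and 236 in NS2. The EP300 KD1 libraries were the lowest and the EP300 KD2 libraries the highest of the 12, with no overlap. EP300 KD2 held 2.70 times as much as EP300 KD1 (log2 difference 1.43 ± 0.028 (SE), adjusted p = 2.73e-17, NS2 minus NS1 -0.12). MCM4, MCM5, MCM6 and MCM7 gave log2 differences of 1.06, 1.27, 1.02 and 1.00, with adjusted p-values of 1.68e-16, 8.46e-17, 2.81e-15 and 8.46e-17. In NS2 minus NS1 the same 4 genes stood at -0.028, -0.0066, -0.055 and -0.046. Factors that load or fire the helicase followed: MCM10 1.45, GINS1, a subunit of the GINS complex, 1.41, CDC45 1.14 and CDC6, which loads MCM2-7 onto origins, 1.29, all called (adjusted p = 2.74e-15, 9.78e-15, 9.56e-16 and 8.07e-16, NS2 minus NS1 -0.095, -0.016, 0.062 and 0.046).

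PCNA, the sliding clamp of the DNA polymerases (NM_182649, chromosome 20, 5114953 to 5126622), measured 166, 163 and 169 CPM in EP300 KD1 and 333, 326 and 346 in EP300 KD2, with 272, 279 and 274 in NS1 and 264, 242 and 249 in NS2. Its order was that of MCM3, EP300 KD1 lowest and EP300 KD2 highest without overlap (log2 difference 1.01 ± 0.031 (SE), adjusted p = 3.26e-15, NS2 minus NS1 -0.13). FEN1, the flap endonuclease of lagging-strand synthesis, was higher (log2 difference 1.01, adjusted p = 6.23e-15). RRM2, the small subunit of ribonucleotide reductase, was higher (log2 difference 0.89, adjusted p = 9.86e-16). DTL, an adaptor of the ubiquitin ligase that clears licensing factors in S phase, was higher (log2 difference 1.25, adjusted p = 5.64e-16). NS2 minus NS1 was -0.084, -0.11 and 0.033 for these 3.

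Transcription factors of the G1 to S transition were in the same direction. E2F2, an activator of the E2F family (NM_004091, chromosome 1, 23505212 to 23531233), measured 4.36, 3.98 and 3.98 CPM in EP300 KD1, 16.9, 15.8 and 17 in EP300 KD2, 19.1, 17.8 and 19.5 in NS1 and 14.9, 13.7 and 16 in NS2. EP300 KD1 stood far below the other 9 libraries, whereas EP300 KD2 lay in the range of the controls. The level in EP300 KD2 was 4.03 times that in EP300 KD1 (log2 difference 2.01 ± 0.075 (SE), adjusted p = 5.39e-14, NS2 minus NS1 -0.34). E2F1 measured 14.7 ± 0.626 and 37 ± 1.38 CPM (log2 difference 1.33 ± 0.052 (SE), adjusted p = 1.06e-13, NS2 minus NS1 -0.19). MYBL2, the transcription factor B-Myb, measured 59.4, 62.3 and 60.2 CPM in EP300 KD1 and 161, 164 and 167 in EP300 KD2 (log2 difference 1.44 ± 0.032 (SE), adjusted p = 8.95e-17, NS2 minus NS1 -0.059), with the controls between them at 118 and 113. RBL1, the pocket protein p107, was higher (log2 difference 1.00, adjusted p = 2.45e-12, NS2 minus NS1 0.021), as was CDK2, the partner of cyclins E and A (log2 difference 0.77, adjusted p = 1.14e-13, NS2 minus NS1 -0.069). The wider list of G1 cyclins, CDKs and CDK inhibitors was mixed, with 6 of 12 higher and 4 lower (1 higher and 0 lower in NS2 than in NS1) and a median of 0.17. CDKN1A, the inhibitor p21, was lower (431 ± 3.53 and 372 ± 3.05 CPM, log2 difference -0.21 ± 0.026 (SE), adjusted p = 8.77e-07, NS2 minus NS1 -0.0059), and CDK4 was higher (log2 difference 0.32, adjusted p = 1.14e-08, NS2 minus NS1 -0.019).

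The promoters of these genes were compared because the E2F site is the classical element of S phase genes. The 3 letter strings TTTCCCGC, TTTGGCGC and TTTCGCGC were searched on both strands of the RefSeq promoters (GRCh38.p14, 250 bases before to 50 after the start). At least 1 occurred in 19 of the 34 S phase members with a promoter entry (55.9%), against 902 of all 27305 genes with one (3.30%). The G2 and mitosis list had 3 of 38 (7.89%). The S phase list holds many classical E2F targets, so its share describes the list and not the difference between the lines. A match is a description of the letters and not a binding site. The 250 bases before the start of MCM6, E2F2 and E2F1 (chr2:135876444-135876693, chr1:23531234-23531483 and chr20:33686386-33686635, all on the minus strand), which were higher, with log2 differences of 1.02, 2.01 and 1.33, are shown with matches in capitals. In MCM6 the matches on opposite strands overlap.
MCM6: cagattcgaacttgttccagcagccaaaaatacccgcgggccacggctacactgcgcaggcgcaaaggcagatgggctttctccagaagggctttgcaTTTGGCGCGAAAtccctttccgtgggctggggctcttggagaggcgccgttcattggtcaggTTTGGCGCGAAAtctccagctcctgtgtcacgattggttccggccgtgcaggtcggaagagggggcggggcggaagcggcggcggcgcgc
E2F2: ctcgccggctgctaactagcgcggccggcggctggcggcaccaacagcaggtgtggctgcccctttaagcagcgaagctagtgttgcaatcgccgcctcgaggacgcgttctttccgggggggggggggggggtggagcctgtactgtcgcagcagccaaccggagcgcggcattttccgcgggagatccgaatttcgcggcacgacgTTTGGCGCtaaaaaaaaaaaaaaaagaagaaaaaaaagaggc
E2F1: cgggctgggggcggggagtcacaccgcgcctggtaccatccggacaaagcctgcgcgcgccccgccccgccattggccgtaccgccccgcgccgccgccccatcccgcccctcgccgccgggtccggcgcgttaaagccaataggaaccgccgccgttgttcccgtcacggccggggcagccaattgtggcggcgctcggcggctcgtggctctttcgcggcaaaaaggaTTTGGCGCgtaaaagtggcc

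Genes of G2 and mitosis were also higher, by less. Of 43 tested, 42 were higher and 1 lower, with a median of 0.55. The 1 member at least 2-fold higher was MYBL2, described above. The controls moved in the same direction here: 27 of the 43 were higher and 0 lower in NS2 than in NS1, with a median of 0.11. CDC20, an activator of the anaphase-promoting complex, measured 228, 237 and 236 CPM in EP300 KD1 and 386, 388 and 397 in EP300 KD2, without overlap (log2 difference 0.74 ± 0.025 (SE), adjusted p = 9.78e-15, NS2 minus NS1 0.041). CDK1, the mitotic kinase, measured 108 ± 4.37 and 183 ± 10.3 CPM (log2 difference 0.76, adjusted p = 2.97e-12, NS2 minus NS1 -0.028), and its cyclin CCNB1 286 ± 9.15 and 429.8 ± 12.3 (log2 difference 0.59, adjusted p = 1.19e-12, NS2 minus NS1 0.047). The kinase AURKB and the kinesin KIF2C were higher, with log2 differences of 0.75 and 0.58 (adjusted p = 1.25e-13 and 1.14e-13, NS2 minus NS1 0.021 and 0.042). PKMYT1, which phosphorylates and restrains CDK1, is not a member of this list. It was among the 12 genes with the largest positive difference, at 26.1 ± 2.28 and 71.7 ± 2.00 CPM (log2 difference 1.45 ± 0.053 (SE), adjusted p = 3.76e-14, NS2 minus NS1 0.0015). EP300 KD1 lay below both controls and EP300 KD2 above both for 25 of the 43 genes, against 11.8% of all genes.

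Homologous recombination and repair genes, many of which are transcribed in S phase, were higher for 19 of 20 tested and lower for 1 (2 higher and 2 lower in NS2 than in NS1), with a median of 0.82. EXO1, the exonuclease that resects DNA ends, measured 15.5, 14.4 and 13.9 CPM in EP300 KD1 and 41.2, 38.8 and 41.2 in EP300 KD2 (log2 difference 1.47 ± 0.047 (SE), adjusted p = 6.45e-15, NS2 minus NS1 -0.057). EP300 KD2 was above and EP300 KD1 below all 6 control libraries, whose means were 28.8 in NS1 and 27.6 in NS2. RAD54L, a helicase of recombination, was higher (log2 difference 1.2, adjusted p = 4.01e-14, NS2 minus NS1 -0.15). So were FANCI of the Fanconi pathway (log2 difference 0.82, adjusted p = 1.27e-14, NS2 minus NS1 -0.025) and MSH6 of mismatch repair (log2 difference 0.66, adjusted p = 9.74e-14, NS2 minus NS1 -0.059). The lower gene was the kinase ATM (167 ± 4.27 and 129 ± 1.08 CPM, log2 difference -0.37 ± 0.028 (SE), adjusted p = 1.71e-09, NS2 minus NS1 0.033). TERT, the catalytic subunit of telomerase, was low throughout, at 0.385, 0.258 and 0.494 CPM in EP300 KD1 and 1.95, 1.57 and 1.36 in EP300 KD2. Its EP300 KD1 libraries lay below all others, and those of EP300 KD2 overlapped with NS1 (1.25, 1.54 and 1.26 CPM) but not with NS2 (0.758, 0.813 and 1.04 CPM). It was called higher (log2 difference 2.1 ± 0.23 (SE), adjusted p = 2.25e-07), and lower in NS2 than in NS1 (-0.62, adjusted p = 0.0298).

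Other genes among the 12 with the largest positive differences were MNS1, a structural protein of flagella and cilia (3.54 ± 0.326 and 10.8 ± 0.881 CPM, log2 difference 1.6, adjusted p = 5.77e-11), VIPR1, a receptor for vasoactive intestinal peptide (2.57 ± 0.567 and 7.77 ± 0.639, log2 difference 1.59, adjusted p = 5.97e-10), and XXYLT1, a xylosyltransferase that modifies Notch EGF repeats (9.43 ± 0.648 and 27.9 ± 1.37, log2 difference 1.56, adjusted p = 9.93e-15). VIPR1 was higher in NS2 than in NS1 as well (0.98, adjusted p = 2.92e-08), whereas MNS1 and XXYLT1 were lower in NS2 (-0.33 and -0.19). RPL41, of a small ribosomal protein, had widely spread libraries of 9.37, 37.6 and 8.33 CPM in EP300 KD1 and 65.3, 47.5 and 44.5 in EP300 KD2. Its call (log2 difference 1.5 ± 0.46 (SE), adjusted p = 0.00918, NS2 minus NS1 0.38) was lost in DESeq2 (1.53, adjusted p = 0.0612) and without EP300 KD1 replicate 3 (1.14, adjusted p = 0.0516). PTMA, the abundant nuclear protein prothymosin alpha, was higher at 1343 ± 61.7 against 610.2 ± 2.55 CPM (log2 difference 1.14 ± 0.031 (SE), adjusted p = 9.16e-16, NS2 minus NS1 -0.05), with the controls at 1284 and 1240.0. Both RPL41 and PTMA have many processed copies in the genome, so their counts are uncertain.

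**Figure D2:**
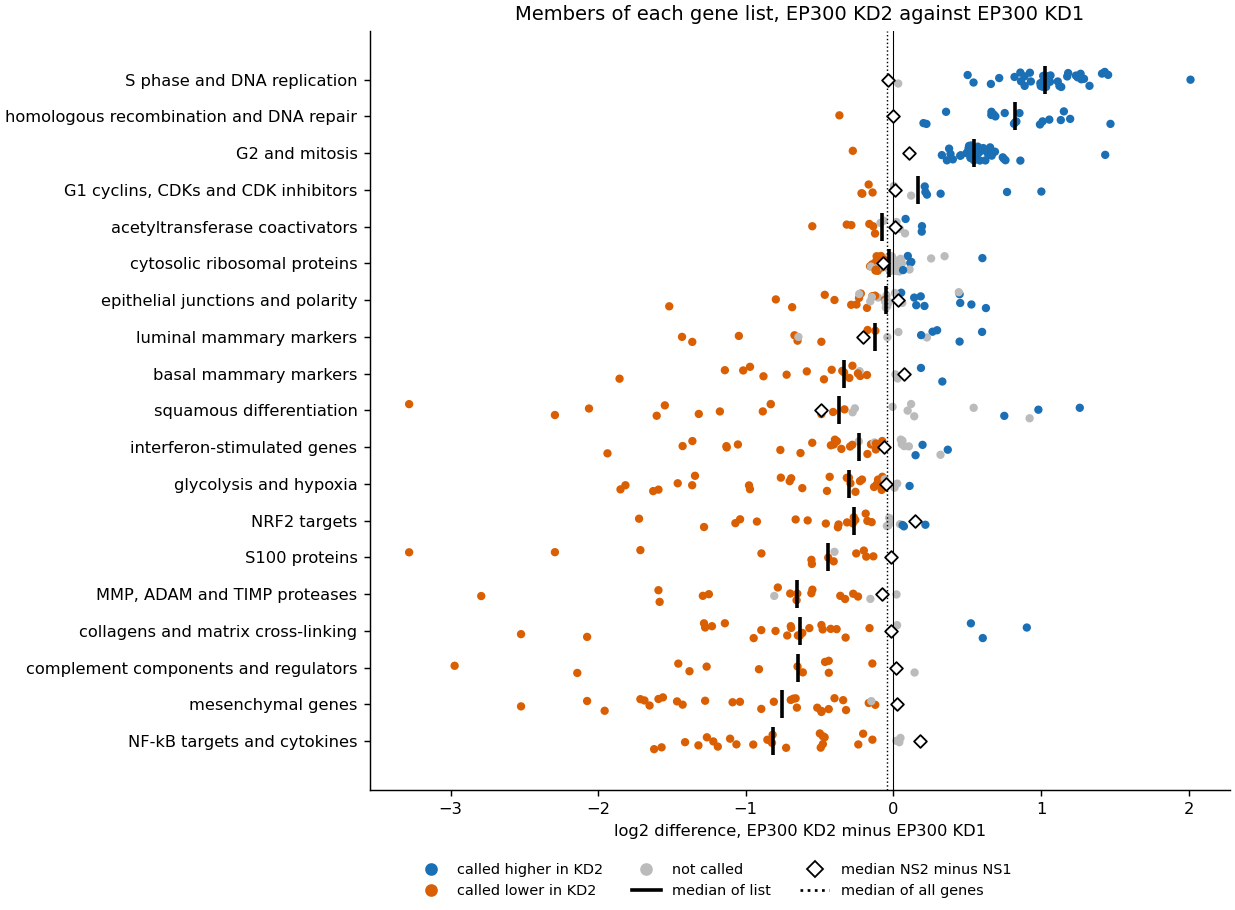
Log2 difference of EP300 KD2 minus EP300 KD1 (horizontal axis) for every tested member of 19 gene lists (points, coloured by call), with the median of each list as a bar and its median in NS2 minus NS1 as a diamond. The dotted line is the median of all genes. S phase members lie on the right with a median of 1.03, and NF-kB targets and mesenchymal genes on the left with medians of -0.82 and -0.75.

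NF-kB targets and cytokines were lower in EP300 KD2. NF-kB dimers induce cytokines, chemokines and adhesion molecules, and p300 is a coactivator of its RELA subunit, as background. Of 25 tested members, 0 were higher and 22 lower (35.1% over all genes), 9 of them by at least 2-fold, with a median of -0.82. The controls went the other way, with 15 members higher and 2 lower in NS2 and a median of 0.18. Both knockdown lines lay above both control means for 18 of the 25, against 26.0% of all genes. EP300 KD2 was thus nearer to the controls than EP300 KD1 for most of the 25.

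Among the ligands, IL1B (NM_000576, chromosome 2, 112829751 to 112836779) measured 71.7, 80.2 and 71.9 CPM in EP300 KD1 and 25.2, 24 and 26.2 in EP300 KD2, against 7.53, 8.15 and 7.35 in NS1 and 13.5, 14.8 and 15.8 in NS2. The groups did not overlap, and they stood in the order EP300 KD1, EP300 KD2, NS2 and NS1. EP300 KD1 held 2.97 times as much as EP300 KD2 (log2 difference -1.57 ± 0.051 (SE), adjusted p = 7.92e-15), although NS2 was above NS1 (0.94, adjusted p = 2.94e-08). IL1A, the second interleukin 1 ligand, measured 76 ± 2.75 and 31.6 ± 0.398 CPM (log2 difference -1.26 ± 0.042 (SE), adjusted p = 9.93e-15, NS2 minus NS1 1.25), with EP300 KD2 below the NS2 mean of 36.2. IL1R1, their receptor, measured 89.1 ± 2.97 and 33.8 ± 0.779 CPM (log2 difference -1.4 ± 0.033 (SE), adjusted p = 1.65e-16, NS2 minus NS1 -0.17), with controls at 37.2 and 33.1. IL33, an alarmin of the family, was lower (log2 difference -1.27, adjusted p = 2.99e-11, NS2 minus NS1 -0.45). The interleukin 1 list as a whole had 1 of 8 members higher and 7 lower, with 2 higher and 6 lower in NS2 than in NS1. With the control difference subtracted, 4 rather than 7 were lower, and the higher member lost its call without EP300 KD1 replicate 1, EP300 KD1 replicate 2 or EP300 KD2 replicate 1.

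Chemokines were lower where they differed, 6 of 9 tested lower and 0 higher (2 higher and 2 lower in NS2 than in NS1). CXCL8, the neutrophil chemoattractant interleukin 8 (NM_000584, chromosome 4, 73740569 to 73743716), measured 116, 119 and 111 CPM in EP300 KD1, 48.4, 48.6 and 51.7 in EP300 KD2, 40.9, 41.2 and 38 in NS1 and 44.1, 39.5 and 46.7 in NS2. EP300 KD1 stood above the other 9 libraries, while EP300 KD2 was little above the controls (log2 difference -1.22 ± 0.046 (SE), adjusted p = 7.21e-14, NS2 minus NS1 0.12). CCL20 and CXCL3 were lower, with log2 differences of -1.32 and -1.41 (adjusted p = 6.30e-15 and 1.12e-13), with NS2 minus NS1 at 0.35 and 0.20. CXCL3 shares sequence with CXCL1 and CXCL2, so its counts are uncertain. IL6 was low and lower in EP300 KD2 (13.5 ± 0.835 and 7.59 ± 0.698 CPM, log2 difference -0.82 ± 0.099 (SE), adjusted p = 8.42e-07, NS2 minus NS1 0.61). ICAM1, an adhesion molecule, PTGS2, the inducible cyclooxygenase, and TNFAIP3, the feedback inhibitor A20, were lower, with log2 differences of -1.19, -1.11 and -1.06 (adjusted p = 9.89e-10, 9.79e-09 and 1.09e-14, NS2 minus NS1 0.19, -0.64 and 0.21).

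SOD2, the mitochondrial superoxide dismutase and a much-used NF-kB target, was among the 5 most abundant genes at least 2-fold lower (NM_001024466, chromosome 6, 159669069 to 159762281). It measured 819, 731 and 795 CPM in EP300 KD1, 259, 257 and 246 in EP300 KD2, 177, 174 and 170.4 in NS1 and 236, 227 and 259 in NS2. The EP300 KD2 libraries overlapped with those of NS2, and EP300 KD1 stood apart above them (log2 difference -1.62 ± 0.042 (SE), adjusted p = 4.69e-16, NS2 minus NS1 0.47). TNFAIP6, the hyaluronan-binding protein TSG-6, which cytokines induce, measured 25.3, 21.1 and 22.3 CPM in EP300 KD1 and 2.78, 2.66 and 2.93 in EP300 KD2, and under 1 CPM in the mean of either control (0.343 and 0.752). It was lower in EP300 KD2 (log2 difference -3.03 ± 0.11 (SE), adjusted p = 1.86e-14) and higher in NS2 than in NS1 (1.14, adjusted p = 0.00120).

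The letters GGANTTTCC, a shortened NF-kB element, were searched on both strands of the same promoters. They occurred in 12 of the 21 list members with an entry (57.1%), against 549 of all 27305 genes (2.01%), and in 0 of the 34 S phase promoters. The list was drawn up from known targets, so this share describes the list and not the difference between the lines. The 250 bases before the start of CXCL8 (chr4:73740319-73740568) and IL6 (chr7:22726950-22727199), both on the plus strand, are shown with the match in capitals, as both genes were lower in EP300 KD2.
CXCL8: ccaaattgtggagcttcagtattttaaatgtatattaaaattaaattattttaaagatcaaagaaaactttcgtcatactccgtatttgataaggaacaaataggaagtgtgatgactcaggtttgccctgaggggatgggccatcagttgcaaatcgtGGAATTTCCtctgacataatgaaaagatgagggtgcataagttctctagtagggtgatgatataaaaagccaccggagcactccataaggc
IL6: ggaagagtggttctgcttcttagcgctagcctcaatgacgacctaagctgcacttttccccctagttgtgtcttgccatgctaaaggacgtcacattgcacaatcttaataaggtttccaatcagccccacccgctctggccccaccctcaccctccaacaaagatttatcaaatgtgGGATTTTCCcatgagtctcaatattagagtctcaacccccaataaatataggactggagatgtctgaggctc

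Innate immune genes outside that list were also lower. The alarmin subunits S100A8 and S100A9 pair as calprotectin, and S100A8 was among the 12 genes with the largest negative difference. S100A8 (NM_002964, chromosome 1, 153390032 to 153422583) measured 11.3, 9.20 and 10.2 CPM in EP300 KD1, 0.975, 0.989 and 1.20 in EP300 KD2, 1.58, 1.38 and 1.32 in NS1 and 1.17, 1.29 and 1.66 in NS2. The EP300 KD1 libraries stood apart above the other 9, and those of EP300 KD2 lay at or below the controls (log2 difference -3.28 ± 0.13 (SE), adjusted p = 1.84e-13, NS2 minus NS1 -0.048). S100A9 measured 75.1 ± 7.01 and 15.3 ± 0.542 CPM (log2 difference -2.29 ± 0.063 (SE), adjusted p = 1.01e-15, NS2 minus NS1 -0.014), with EP300 KD2 below the control means of 21.1 and 21. Of 13 S100 genes tested, 12 were lower and 0 higher (4 higher and 4 lower in NS2 than in NS1), with a median of -0.44, among them S100A4 (log2 difference -1.71, adjusted p = 6.52e-14, NS2 minus NS1 -0.24) and the abundant S100A6 (3465 ± 65.3 and 1864 ± 81.5 CPM, log2 difference -0.89, adjusted p = 9.72e-15, NS2 minus NS1 0.23).

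FPR1 and C3AR1, receptors for formyl peptides and for the complement fragment C3a, are better known from leukocytes. FPR1 measured 13.5 ± 0.547 CPM in EP300 KD1 and 1.80 ± 0.111 in EP300 KD2 (log2 difference -2.91 ± 0.10 (SE), adjusted p = 2.95e-14, NS2 minus NS1 0.28), and C3AR1 4.65 ± 0.309 and 0.595 ± 0.196 (log2 difference -2.97 ± 0.22 (SE), adjusted p = 6.99e-10, NS2 minus NS1 0.44). C3AR1 averaged 0.0426 and 0.0624 CPM in the controls, below every library of both lines. TREM1, a receptor that amplifies myeloid inflammation, measured 6.81 ± 1.12 and 0.893 ± 0.199 CPM (log2 difference -2.91 ± 0.17 (SE), adjusted p = 3.36e-11, NS2 minus NS1 -0.089). These receptors were measured in cells labelled as epithelial. Of 17 leukocyte markers, 6 were tested, of which 1 was higher and 3 lower (median -0.85, 2 higher and 0 lower in NS2 than in NS1). MS4A1 and TYROBP were at 0 counts in both lines, PTPRC, SPI1 and CD3E in EP300 KD1 but not in EP300 KD2, and CD3D in EP300 KD2 but not in EP300 KD1. The list summed to 76.6 to 84.5 CPM in EP300 KD1 and 54.6 to 57.6 in EP300 KD2, and its part in these differences was not tested.

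Of 13 complement genes, 12 were lower and 0 higher (0 higher and 4 lower in NS2 than in NS1), with a median of -0.65. C3, the central component, measured 668 ± 24.8 CPM in EP300 KD1 and 355 ± 5.74 in EP300 KD2 (log2 difference -0.91 ± 0.031 (SE), adjusted p = 1.27e-14), below both controls (1079 and 742), and it was also lower in NS2 than in NS1 (-0.54). The protease C1R was lower (log2 difference -1.38, adjusted p = 7.73e-13, NS2 minus NS1 0.19), as was its partner C1S (log2 difference -1.27, adjusted p = 7.58e-09, NS2 minus NS1 0.27). CD55 and CD59, membrane inhibitors of complement, were lower, with log2 differences of -0.65 and -0.44 (adjusted p = 2.72e-10 and 3.81e-12, NS2 minus NS1 0.039 and -0.044), as was the C5a receptor C5AR1 (log2 difference -1.46, adjusted p = 1.21e-07, NS2 minus NS1 -0.76). Interferon-stimulated genes were lower for 21 of 33 and higher for 3 (2 higher and 10 lower in NS2 than in NS1), with a median of -0.23. With the control difference subtracted, 13 rather than 21 were called lower. The ISG15-conjugating enzyme UBE2L6 (log2 difference -1.94, adjusted p = 3.61e-12), the DNA sensor IFI16 (log2 difference -0.55, adjusted p = 6.39e-12), TRIM22 (log2 difference -0.63, adjusted p = 1.48e-10) and IFI44L (log2 difference -1.05, adjusted p = 6.05e-11) were lower. In NS2 minus NS1 these stood at -0.11, -0.062, -0.059 and -0.78, and for IFI44L the difference of the differences was -0.28 ± 0.09 (SE), adjusted p = 0.0148.

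Mesenchymal genes, which mark epithelial cells that take on a fibroblast-like program, were lower in EP300 KD2 for 28 of 30 tested and higher for 0. The median was -0.75, and 13 members were at least 2-fold lower. Control lines were balanced on this list, with 8 members higher and 8 lower in NS2 and a median of 0.028. Both lines lay above both control means for 18 of the 30, against 26.0% of all genes. For 6 of the 30, EP300 KD1 lay above and EP300 KD2 below, against 10.1% of all genes.

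FN1, the gene of fibronectin (NM_002026, chromosome 2, 215360865 to 215436068), measured 1109, 1198 and 1141 CPM in EP300 KD1, 393, 389 and 387 in EP300 KD2, 82.9, 83.8 and 74.9 in NS1 and 80.9, 90.8 and 87.8 in NS2. The knockdown lines lay far above the controls without overlap, and EP300 KD1 held 2.95 times as much as EP300 KD2 (log2 difference -1.56 ± 0.037 (SE), adjusted p = 1.68e-16, NS2 minus NS1 0.11). VIM, the intermediate filament vimentin, had the same order at 2164 ± 52.5 and 1513 ± 18 CPM against 548 and 612 in the controls (log2 difference -0.52 ± 0.023 (SE), adjusted p = 6.58e-13, NS2 minus NS1 0.16). SPARC, a matrix glycoprotein, measured 25.7 ± 1.65 and 6.65 ± 0.669 CPM (log2 difference -1.96 ± 0.082 (SE), adjusted p = 2.86e-13, NS2 minus NS1 0.43). TNC, the matrix protein tenascin C, was at 309 ± 18.9 and 115 ± 3.42 CPM (log2 difference -1.43, adjusted p = 9.56e-16, NS2 minus NS1 -0.50), with EP300 KD2 between the control means of 153 and 108. Of the transcription factors of this program, ZEB1 was lower (log2 difference -0.66, adjusted p = 6.83e-06, NS2 minus NS1 -0.21), as was SNAI2 (log2 difference -0.40, adjusted p = 1.18e-07, NS2 minus NS1 -0.15).

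PDGFRA, a receptor for platelet-derived growth factor found on fibroblasts, measured 8.70, 9.03 and 7.95 CPM in EP300 KD1, 0.999, 1.21 and 1.14 in EP300 KD2, 0.554, 0.338 and 0.397 in NS1 and 0.442, 0.331 and 0.461 in NS2. Every EP300 KD1 library was above every EP300 KD2 library, and these were above the controls (log2 difference -2.94 ± 0.13 (SE), adjusted p = 7.26e-13, NS2 minus NS1 -0.061). ITGA5, the fibronectin receptor subunit, measured 664 ± 20.1 and 312 ± 3.93 CPM (log2 difference -1.09 ± 0.026 (SE), adjusted p = 2.00e-16), and was higher in NS2 than in NS1 (0.46, adjusted p = 9.13e-10). Of 14 growth factor receptors tested, 10 were lower and 1 higher, with 3 higher and 3 lower in NS2 than in NS1. The higher member lost its call in DESeq2, with the replicate block and without EP300 KD1 replicate 1, EP300 KD1 replicate 3, EP300 KD2 replicate 1 or EP300 KD2 replicate 3, and 2 were higher without EP300 KD1 replicate 2 or with the control difference subtracted. FGFR1, INSR and IGF1R were lower, with log2 differences of -0.34, -0.60 and -0.31 (adjusted p = 2.80e-06, 6.87e-07 and 1.70e-08, NS2 minus NS1 -0.018, -0.23 and 0.13). EGFR, the receptor of the growth factor in the culture medium, measured 227, 233 and 232 and 231, 237 and 230.3 CPM and was not called (log2 difference 0.014 ± 0.031 (SE), adjusted p = 0.719), while NS2 stood above NS1 (0.28, adjusted p = 1.41e-06).

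Collagens and the enzymes that cross-link them were lower for 23 of 27 and higher for 3 (7 higher and 5 lower in NS2 than in NS1), with a median of -0.63. COL6A3 of collagen VI (NM_057167, chromosome 2, 237324018 to 237414164) measured 125, 134 and 129 CPM in EP300 KD1 and 23.6, 20.5 and 23.5 in EP300 KD2, against 7.88, 6.49 and 6.95 in NS1 and 9.61, 9.09 and 8.85 in NS2. EP300 KD1 held 5.75 times as much as EP300 KD2, and both lines exceeded every control library (log2 difference -2.52 ± 0.048 (SE), adjusted p = 2.73e-17, NS2 minus NS1 0.37). COL17A1, a collagen of hemidesmosomes, was instead below the controls in both lines (217 ± 5.40 and 98.2 ± 0.971 CPM, controls 348 and 288, log2 difference -1.14 ± 0.03 (SE), adjusted p = 4.69e-16, NS2 minus NS1 -0.27). COL4A1 and COL4A5 of basement membranes were lower, with log2 differences of -0.62 and -0.63 (adjusted p = 2.83e-13 and 8.91e-14, NS2 minus NS1 0.47 and -0.13), as were the lysyl oxidases LOX and LOXL2, with -1.28 and -0.89 (adjusted p = 1.43e-13 and 9.84e-14, NS2 minus NS1 -0.13 and 0.029). The 3 higher members were COL12A1 (log2 difference 0.53, adjusted p = 1.71e-08, NS2 minus NS1 -0.84), COL27A1 (log2 difference 0.61, adjusted p = 6.08e-11, NS2 minus NS1 -0.18) and LOXL3 (log2 difference 0.90, adjusted p = 9.36e-07, NS2 minus NS1 -0.016).

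Of 18 matrix proteases and inhibitors tested, 15 were lower and 0 higher, with a median of -0.65. The controls leaned the same way, with 4 higher and 8 lower in NS2 than in NS1, and with that difference subtracted 3 members were higher. MMP9, a gelatinase, was low and measured 2.09, 3.76 and 2.24 CPM in EP300 KD1 and 0.357, 0.604 and 0.185 in EP300 KD2 (log2 difference -2.79 ± 0.31 (SE), adjusted p = 2.86e-07, NS2 minus NS1 -1.13), with control means of 0.0268 and 0.0105. MMP2, the other gelatinase, lay between the control means of 7.36 and 4.74 CPM in EP300 KD1 and below both in EP300 KD2 (6.02 ± 0.165 and 2.00 ± 0.239 CPM, log2 difference -1.59 ± 0.11 (SE), adjusted p = 3.27e-10, NS2 minus NS1 -0.63). MMP14, a membrane-bound activator of MMP2, and the sheddase ADAM19 were lower, with log2 differences of -0.65 and -1.25 (adjusted p = 1.19e-12 and 1.58e-15, NS2 minus NS1 0.066 and -0.19). The inhibitors TIMP1 (2327 ± 162 and 1353 ± 13 CPM, log2 difference -0.78, adjusted p = 7.22e-13, NS2 minus NS1 0.098) and TIMP2 (105 ± 1.97 and 42.9 ± 1.41, log2 difference -1.29, adjusted p = 9.56e-16, NS2 minus NS1 -0.15) were lower too. Serpins and plasminogen activators were lower for 12 of 18 and higher for 2 (4 higher and 7 lower in NS2 than in NS1), with the abundant SERPINA3 at 2512 ± 58 and 1276 ± 22.3 CPM (log2 difference -0.98, adjusted p = 1.28e-16, NS2 minus NS1 0.07) and SERPINA5 lower (log2 difference -1.55, adjusted p = 8.22e-15, NS2 minus NS1 -0.11).

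TGF-beta induces many of these matrix genes. Of 24 TGF-beta and SMAD targets, 17 were lower and 3 higher (7 higher and 6 lower in NS2 than in NS1), with a median of -0.16, and 11 rather than 17 were lower with library totals alone or with only the 6 libraries compared. LTBP1, which holds latent TGF-beta in the matrix, measured 327 ± 20.6 and 81.6 ± 3.03 CPM (log2 difference -2.00 ± 0.044 (SE), adjusted p = 8.46e-17, NS2 minus NS1 -0.21), and the ligand TGFB1 114 ± 5.91 and 64.9 ± 2.33 (log2 difference -0.81 ± 0.038 (SE), adjusted p = 1.26e-12, NS2 minus NS1 0.016). CCN1 and CCN2, matricellular proteins that are induced by TGF-beta and by YAP, were higher in EP300 KD2 (log2 difference 0.67, adjusted p = 1.22e-07 and log2 difference 0.61, adjusted p = 1.19e-06) and lower in NS2 than in NS1 (-0.54 and -1.13). YAP and TEAD targets were split, with 8 of 21 higher and 9 lower (6 higher and 6 lower in NS2 than in NS1) and a median of -0.061.

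Because many of these are fibroblast genes, markers of other cell types were examined. Of 14 fibroblast markers, 9 were tested and all 9 were lower (0 higher and 3 lower in NS2 than in NS1), with a median of -1.27. The summed level of all 14, tested or not, ran from 166 to 168 CPM in EP300 KD1 and from 78.8 to 80.3 in EP300 KD2. The defining genes COL1A2, COL3A1 and LUM were at 0 counts in all 12 libraries, and THY1 in all 6 of the lines. DCN, the proteoglycan decorin, accounted for part of the sum at 43.3 ± 0.878 and 10.9 ± 0.503 CPM (log2 difference -1.99, adjusted p = 2.89e-15, NS2 minus NS1 -0.67). Of 12 endothelial markers 5 were tested and 5 were lower (2 higher and 1 lower in NS2 than in NS1, and 3 lower with that subtracted). All 12 summed to 24.3 to 26.6 CPM in EP300 KD1 and 12.7 to 12.8 in EP300 KD2. CDH5, FLT1, EMCN, CLDN5 and ERG were at 0 counts in both lines. The 10 mammary epithelial markers summed to 4614 to 4693 CPM in EP300 KD1 and 4196 to 4317 in EP300 KD2, against 6891 to 7977 in the controls. In bulk RNA, fewer cells of a type and less RNA per cell cannot be told apart, and the part of other cell types in these differences was not tested.

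Epithelial genes differed less and in both directions. Of 36 junction and polarity genes, 9 were higher and 13 lower (9 higher and 5 lower in NS2 than in NS1), with a median of -0.053, close to that of all genes, as are these shares. CDH1, the gene of E-cadherin, measured 212, 210.5 and 212 CPM in EP300 KD1 and 181, 183 and 179.7 in EP300 KD2, below 383 and 377 in the controls (log2 difference -0.22 ± 0.023 (SE), adjusted p = 1.16e-07, NS2 minus NS1 -0.022). EPCAM was higher in EP300 KD2 (179.5 ± 4.56 and 245 ± 4.02 CPM, log2 difference 0.45, adjusted p = 7.46e-11, NS2 minus NS1 0.17), as was the claudin CLDN1 (35.5 ± 2.76 and 48.6 ± 2.33, log2 difference 0.45, adjusted p = 8.45e-08, NS2 minus NS1 -0.29), which was far below the controls in both lines (265 and 217). GRHL2, a transcription factor that maintains epithelial genes, was higher (log2 difference 0.19, adjusted p = 2.99e-04, NS2 minus NS1 0.041). The desmosomal cadherins DSG3 and DSC3 and the tight-junction scaffold TJP3 were lower, with log2 differences of -0.69, -0.46 and -1.52 (adjusted p = 2.38e-12, 2.37e-11 and 1.40e-11, NS2 minus NS1 0.013, -0.14 and -0.14).

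Basal mammary markers were lower for 16 of 21 and higher for 2 (10 higher and 8 lower in NS2 than in NS1), with a median of -0.33. For 13 of the 21 both lines lay below both controls, against 27.0% of all genes. KRT17, a basal keratin, measured 309.9, 296 and 292 CPM in EP300 KD1, 149.8, 145 and 149 in EP300 KD2, 726, 697 and 705 in NS1 and 577, 601 and 585 in NS2. The groups were ordered NS1, NS2, EP300 KD1 and EP300 KD2 without overlap (log2 difference -1.02 ± 0.028 (SE), adjusted p = 9.27e-16, NS2 minus NS1 -0.27). KRT17 and KRT16 (log2 difference -1.55, adjusted p = 8.82e-11, NS2 minus NS1 0.29) have near-identical relatives and are uncertain. The laminin chains LAMA3 and LAMB3 were lower, with log2 differences of -0.88 and -0.72 (adjusted p = 1.47e-13 and 4.51e-11), though in NS2 minus NS1 they stood at 0.39 and 0.50. The laminin-binding integrin subunit ITGA6 was lower (log2 difference -0.59, adjusted p = 8.22e-15, NS2 minus NS1 0.28), as was KRT5 (log2 difference -0.24, adjusted p = 5.70e-09, NS2 minus NS1 0.31). MME, the peptidase CD10, was lower in EP300 KD2 (22 ± 1.33 and 6.06 ± 0.0182 CPM, log2 difference -1.86 ± 0.058 (SE), adjusted p = 5.23e-15) and lower in NS2 than in NS1 (-1.42, adjusted p = 1.78e-12), with a difference of the differences of -0.44 ± 0.08 (SE), adjusted p = 1.45e-04.

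Luminal and squamous genes were mixed as well. Of 17 luminal markers, 5 were higher and 8 lower (5 higher and 9 lower in NS2 than in NS1), the lower ones including MUC1 (log2 difference -1.05, adjusted p = 7.73e-13), the secreted inhibitors SLPI (log2 difference -1.36, adjusted p = 1.05e-15) and WFDC2 (log2 difference -1.43, adjusted p = 7.00e-11) and the EGFR ligand AREG (1955 ± 36.3 and 1229 ± 30.8 CPM, log2 difference -0.67, adjusted p = 6.23e-15). MUC1, SLPI and WFDC2 were lower in NS2 than in NS1 too (-0.52, -0.45 and -0.38), whereas AREG was higher (0.42). The luminal list had a median of -0.12 (-0.21 in NS2 minus NS1), with members from -1.43 to 0.60. Its 5 higher members are not named here. Of 24 squamous genes, 3 were higher and 12 lower, but 2 were higher and 14 lower in NS2 than in NS1. With that difference subtracted the median went from -0.37 to 0.027. S100A8 and S100A9, described above, are also in this list and were lower (log2 differences -3.28 and -2.29, NS2 minus NS1 -0.048 and -0.014). By at least 2-fold, 7 squamous members were lower and 1, KLK7, was higher. KLK7, a kallikrein of the stratum corneum, was very low in both lines (0.289, 0.487 and 0.261 and 0.690, 0.934 and 0.926 CPM) and higher in EP300 KD2 (log2 difference 1.26 ± 0.23 (SE), adjusted p = 9.42e-05, NS2 minus NS1 -0.73), against 25.3 and 15.2 CPM in the controls.

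Genes of glycolysis and the hypoxia response were lower for 29 of 33 and higher for 1, with a median of -0.30, while 5 were higher and 9 lower in NS2 than in NS1. NDRG1, a gene induced by hypoxia (NM_006096, chromosome 8, 133237175 to 133297252), measured 221, 206 and 221 CPM in EP300 KD1, 64.7, 60.4 and 58.6 in EP300 KD2, 42.8, 40.8 and 48.8 in NS1 and 46, 47.3 and 50.3 in NS2. EP300 KD1 held 3.53 times as much as EP300 KD2, which lay just above the controls (log2 difference -1.82 ± 0.049 (SE), adjusted p = 8.07e-16, NS2 minus NS1 0.11). CA12, a carbonic anhydrase, was also highest in EP300 KD1 and lay between the control means in EP300 KD2 (129 ± 4.81 and 42.9 ± 0.251 CPM, controls 42.7 and 47.8, log2 difference -1.59 ± 0.036 (SE), adjusted p = 9.48e-17, NS2 minus NS1 0.16). The glucose transporter SLC2A3 and the glycolytic enzyme ALDOC were lower, with log2 differences of -1.85 and -1.36 (adjusted p = 6.30e-15 and 7.34e-14, NS2 minus NS1 -0.045 and -0.089). VEGFA, the angiogenic growth factor, was lower by less (log2 difference -0.32, adjusted p = 9.83e-09, NS2 minus NS1 0.36).

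Stress and redox lists leaned against the direction of the controls, though not in every member. Of 25 NRF2 targets, 17 were lower and 3 higher (median -0.27), whereas 16 were higher and 1 lower in NS2 than in NS1 (median 0.15). The 3 higher members were SLC7A11, SRXN1 and TXNRD1, with log2 differences of 0.22, 0.071 and 0.063. They were also higher in NS2 than in NS1 (0.39, 0.15 and 0.085). The much-used targets NQO1 and GCLM were not called (log2 differences -0.028 and -0.044, NS2 minus NS1 0.26 and 0.16). The ferritin chain FTH1 measured 2893 ± 62.9 and 1524 ± 32.9 CPM (log2 difference -0.92 ± 0.023 (SE), adjusted p = 3.03e-16, NS2 minus NS1 -0.0056), and its retrocopies make the counts uncertain. The aldo-keto reductases AKR1C1 and AKR1C3 were lower, with log2 differences of -1.72 and -1.28 (adjusted p = 1.68e-16 and 8.46e-17, NS2 minus NS1 0.40 and 0.031), but these genes share much of their sequence. The efflux pump ABCC2 was lower (log2 difference -1.07, adjusted p = 1.22e-14, NS2 minus NS1 0.027). Of 26 genes of the unfolded protein and ATF4 response, 17 were lower and 1 higher (median -0.16), against 19 higher and 0 lower in NS2. The chaperones DNAJC3, DNAJB9 and PDIA4 were lower, with log2 differences of -0.45, -0.77 and -0.31 (adjusted p = 1.76e-10, 3.03e-09 and 5.63e-10, NS2 minus NS1 0.29, 0.24 and 0.12).

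The remaining genes with the largest negative differences had varied roles. ZNF467, a zinc-finger factor, measured 2.39 ± 0.345 CPM in EP300 KD1 and 0.226 ± 0.115 in EP300 KD2 (log2 difference -3.44 ± 0.30 (SE), adjusted p = 8.47e-09, NS2 minus NS1 -0.40). DEPP1, a regulator of autophagy induced by FOXO factors, measured 17.7 ± 1.33 and 2.21 ± 0.232 (log2 difference -2.99 ± 0.096 (SE), adjusted p = 6.84e-15, NS2 minus NS1 -1.24), CIDEC, a lipid-droplet protein, 2.27 ± 0.0848 and 0.334 ± 0.00499 (log2 difference -2.75, adjusted p = 9.70e-11, NS2 minus NS1 -0.69), and ALOX15B, a lipoxygenase, 37.9 ± 0.402 and 5.83 ± 0.643 (log2 difference -2.7, adjusted p = 2.00e-16, NS2 minus NS1 0.22). EP300 KD2 lay below both control means for these 4 genes, which were 0.681 and 0.533, 8.84 and 3.74, 0.711 and 0.443, and 15 and 17.4 CPM. LBH, a transcription cofactor of limb and mammary development, measured 2.60, 2.90 and 2.55 CPM in EP300 KD1, 0.357, 0.275 and 0.370 in EP300 KD2, 1.14, 0.891 and 1.15 in NS1 and 0.0948, 0.241 and 0.154 in NS2. Both groups numbered 2 were low. LBH was lower in EP300 KD2 (log2 difference -2.99 ± 0.20 (SE), adjusted p = 1.88e-10) and in NS2 (-2.67, adjusted p = 4.42e-07), and the difference of the differences was not called (-0.32 ± 0.40 (SE), adjusted p = 0.611). Of abundant genes, AHNAK2, a large scaffold protein, was lower (log2 difference -1.43, adjusted p = 2.00e-16, NS2 minus NS1 -0.067), as was the carboxypeptidase CPD (log2 difference -1.05, adjusted p = 9.78e-15, NS2 minus NS1 0.33). SFTPB, a surfactant protein, was lower (log2 difference -2.35, adjusted p = 6.55e-09) and higher in NS2 than in NS1 by 1.31.

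**Figure D3:**
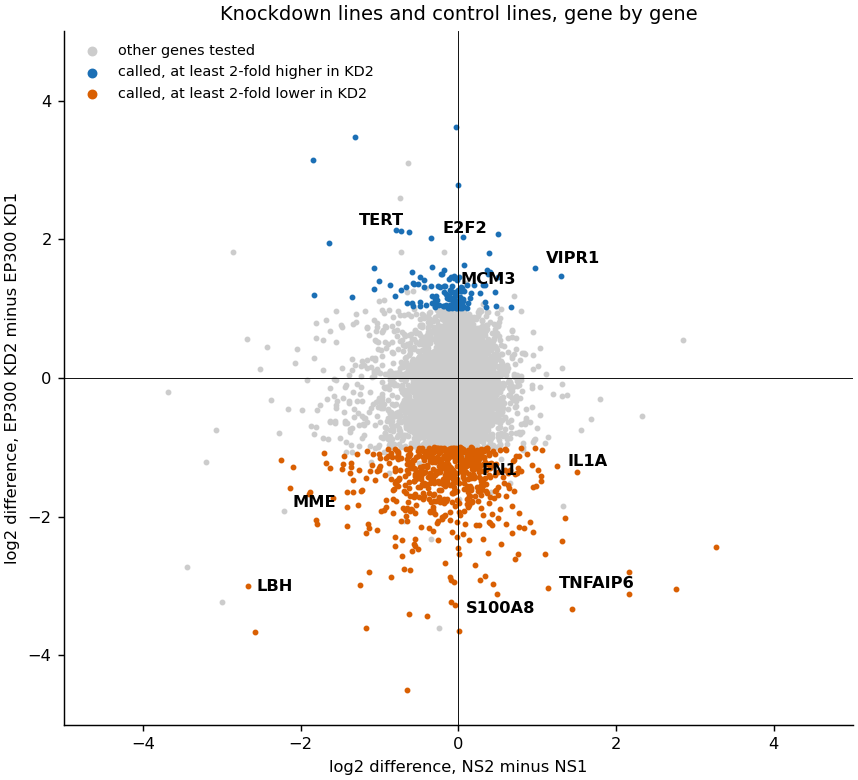
Log2 difference of EP300 KD2 minus EP300 KD1 (vertical axis) against NS2 minus NS1 (horizontal axis) for the genes tested, one point each. MIR30A lies outside the range shown and is the sole gene left out. Points spread further along the vertical than along the horizontal axis, and genes such as LBH and MME lie low on both, while TNFAIP6 and IL1A lie low on the one and high on the other.

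Of the 620 genes at least 2-fold lower in EP300 KD2, 153 (24.7%) were also called lower in NS2 against NS1, 62 (10.0%) were called higher and 405 were not called, against 13.4% lower and 14.2% higher over all genes. Those at least 2-fold lower in both comparisons numbered 37, which is 5.97% of the 620 and 23.1% of the 160 such genes of the controls. Of the 132 genes at least 2-fold higher in EP300 KD2, 5 were also called higher in NS2 and 27 called lower. The difference between the comparisons (EP300 KD2 minus EP300 KD1, less NS2 minus NS1) was called for 50.8% of all genes. No library is shared by the comparisons, but the labels do not say which control corresponds to which hairpin.

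Genes at least 2-fold different did not lie on one side of the controls. Of the 132 higher genes, 82 (62.1%) had a mean below both controls in EP300 KD1 and above both in EP300 KD2, against 11.8% of all genes, and 22 (16.7%) were below both controls in both lines, against 27.0%. Of the 620 lower genes, 173 (27.9%) were above both controls in both lines, a share near the 26.0% of all genes. Another 223 (36.0%) were above in EP300 KD1 and below in EP300 KD2, against 10.1% of all genes, and 94 (15.2%) were below both controls in both lines, against 27.0%. These shares describe means only, with no test, and the selection by size favours genes that lie on opposite sides.

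**Figure D4:**
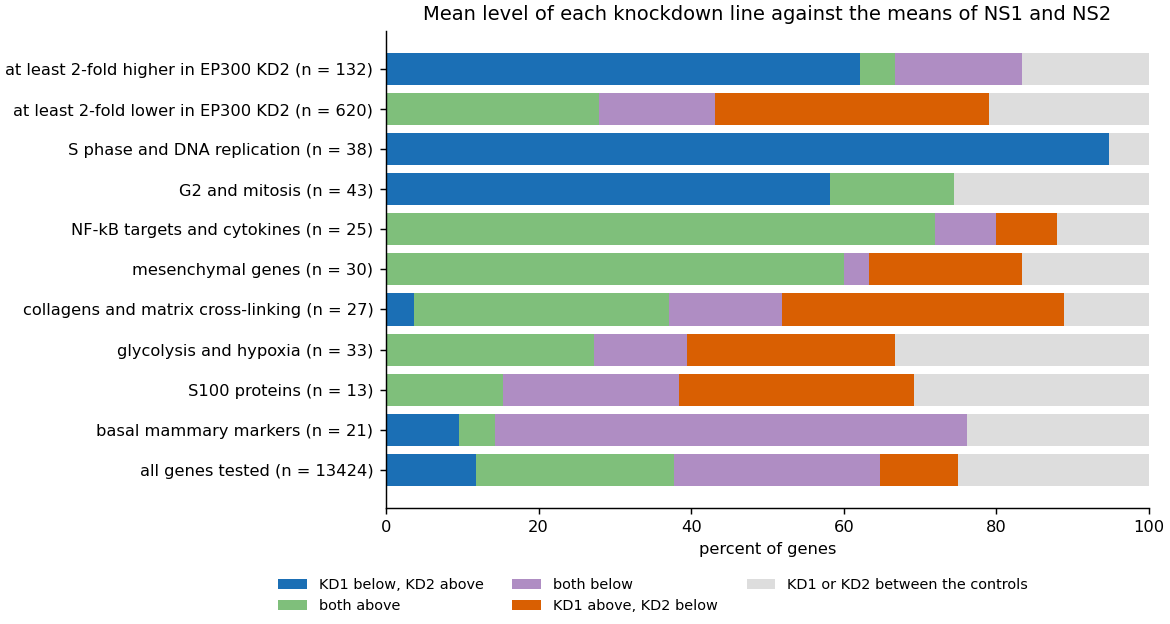
Percent of genes (horizontal axis) by where the mean CPM of each knockdown line lay against the means of NS1 and NS2, for gene sets named at the left with the number of genes. S phase genes fell almost wholly in the class with EP300 KD1 below and EP300 KD2 above both controls (36 of 38). NF-kB targets fell mostly in that with both lines above (18 of 25), and basal markers in that with both below (13 of 21). Over all genes these classes held 11.8%, 26.0% and 27.0%.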

How the data were processed

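RNA sequencing of MCF10AT cells was used, 12 libraries in 4 groups of 3, grouped by the labels. Per the labels' protocols, Trizol RNA went into stranded TruSeq mRNA libraries. The submitters' processing notes name HISAT2 2.1.0, hg38 and featureCounts. The sources used here do not give the counter's version, its annotation or its settings for strand and shared reads. The deposited values are unnormalised counts for 29094 RefSeq accessions, of which 28134 were named from the RefSeq gene table (GRCh38.p14) and 486 from GENCODE. The other 474 rows hold 0.313% of counts. Symbols with more than 1 row (2310) were not named.

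The counts were fitted over all 12 libraries with edgeR 4.0.16 (R 4.3.3; filterByExpr, TMM, quasi-likelihood test, Benjamini-Hochberg over 13424 genes, threshold 0.05), with EP300 KD2 against EP300 KD1 as the contrast, NS2 against NS1 beside it and their difference as an alternative. The common biological coefficient of variation was 0.03. Other settings used limma 3.58.1 and DESeq2 1.42.0, other scaling and filters, and each library left out. The fit was tested on simulated counts. Counts of replicates within a line differed beyond sampling noise, with a chi-square of 1.81 to 4.31 per degree of freedom.

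The members and the 39 gene lists were chosen with earlier results of these data known. Genes named are EP300 and CREBBP, the 12 most different in each direction (mean of at least 1 CPM, libraries of the lines not overlapping), the 5 most abundant at least 2-fold different, the 4 called the opposite way in the controls, and list members by p (up to 4) or by role. Some genes that this rule selects are not reported here.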

Additional observations from a re-analysis of the deposited data

Results flagged for a closer look

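Among genes named for size, abundance or an opposite call in the controls, 13 were called in opposite directions in the lines and the controls. Genes named from the lists, such as IL1A, E2F1 and CCN2, also had opposite calls and are not counted here. The opposite calls are what singled these 13 out. The difference between the comparisons (EP300 KD2 minus EP300 KD1, less NS2 minus NS1, log2, ± SE) is given as a description, since that choice nearly fixes its size and direction. Replication and telomerase genes were higher in EP300 KD2 and lower in NS2: TERT with a difference of 2.72 ± 0.31, E2F2 2.36 ± 0.099, MCM3 1.55 ± 0.038 and PCNA 1.14 ± 0.043. MNS1 and XXYLT1 had the same pattern, at 1.93 ± 0.13 and 1.75 ± 0.069. In these 6 genes NS2 minus NS1 ran from -0.62 (TERT) to -0.12 (MCM3).

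The other 7 were lower in EP300 KD2 and higher in NS2. Matrix and adhesion genes were COL6A3 at -2.89 ± 0.098 and ITGA5 at -1.55 ± 0.039. The cytokine-induced TNFAIP6 stood at -4.17 ± 0.26 and SOD2 at -2.09 ± 0.06. ALOX15B gave -2.91 ± 0.092, CPD -1.38 ± 0.049 and SFTPB -3.66 ± 0.42. SFTPB was under 1 CPM in both controls (0.199 and 0.496) and at 4.89 ± 0.713 CPM in EP300 KD1, so its value has the larger error.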

How the results depend on the processing

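Counts of genes higher, lower and at least 2-fold lower stayed within 1.5 times the reported ones in every setting run. Genes at least 2-fold higher went from 132 to 204 without a filter on low counts and to 241 with NS2 minus NS1 subtracted. Leaving out each library in turn gave 3076 to 3127 genes higher, 4366 to 4524 lower, 132 to 152 at least 2-fold higher and 624 to 669 at least 2-fold lower, and for the controls 1486 to 1744 higher and 1399 to 1629 lower. The share of higher calls was 50.2% without a filter and 49.6% with only the 6 libraries compared, against 41.1%. With the control difference subtracted, CREBBP went to -0.035, EGFR to -0.27 (adjusted p = 4.05e-05) and MIR30A to -4.37, a fitted value against groups at or near 0 counts and no bound, and the calls of LBH, MMP9 (-1.66, adjusted p = 0.63) and RPL41 (1.12, adjusted p = 0.155) were lost. In edgeR, NS2 minus NS1 was itself called for LBH (-2.67), but not for RPL41 (0.38) or MMP9 (-1.13, adjusted p = 0.65). MMP9 averaged 0.0268 and 0.0105 CPM in the controls, and its value after subtraction has an SE of 2.61. With single libraries left out, CREBBP ran from -0.013 (without EP300 KD2 replicate 2) to 0.045, never called. Same-numbered replicates did not deviate together (correlations -0.0373 to 0.0404 between the lines), and a fit with the replicate number as a block gave 3316 higher and 4735 lower and changed no named gene's call. The ribosomal protein list changed direction with the scaling, from 5 higher and 27 lower of 69 to 17 higher and 6 lower with library totals alone. Small counts of higher list members also changed when 1 library was left out: basal markers from 2 to 1 in all such fits but that without EP300 KD1 replicate 3, serpins from 2 to 1 without EP300 KD1 replicate 1 or 3 or EP300 KD2 replicate 3, squamous genes and NRF2 targets each from 3 to 1 without EP300 KD2 replicate 3, and glycolysis and hypoxia genes from 1 to 0 without EP300 KD1 replicate 1 or 2 or EP300 KD2 replicate 2 or 3. With the control difference subtracted, 8 squamous genes and 0 NRF2 targets were higher. Depth limits genes with few counts in at least 1 group, among them TERT, MMP9, LBH, C3AR1, ZNF467, CIDEC and KLK7.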

Other observations

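Counts for further lists are read against 24.6% of all genes higher and 35.1% lower, and shares near these are no result about the list. Of 27 genes of RAS and MAPK output, 16 were lower and 4 higher (median -0.15), although 12 were higher and 1 lower in NS2 than in NS1. Of 13 p53 targets, 8 were lower and 3 higher (median -0.17, 5 higher and 1 lower in NS2 than in NS1). Notch genes were lower for 8 and higher for 3 of 17 (4 higher and 2 lower in NS2 than in NS1), and Wnt genes lower for 10 and higher for 7 of 23 (4 higher and 3 lower in NS2 than in NS1), shares close to those of all genes. Of 16 contractile genes, 8 were lower and 2 higher (3 higher and 7 lower in NS2 than in NS1). Cholesterol synthesis genes were lower for 10 and higher for 3 of 21, with a median of -0.11 (2 higher and 4 lower in NS2 than in NS1), and fatty acid synthesis genes lower for 9 and higher for 0 of 16 (7 higher and 2 lower in NS2 than in NS1). VLDLR, a lipoprotein receptor, was lower (log2 difference -1.32, adjusted p = 4.38e-11, NS2 minus NS1 0.18) (edgeR). Stress and handling genes had a median of 0.00069, with 3 higher and 4 lower of 15. Of the genes typical of HEK293 and neural cells, 3 of 15 were tested, of which 1 was higher and 1 lower.

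No chromosome stood apart as a whole: the median difference by chromosome ran from -0.091 on chromosome 15 to 0.0115 on chromosome 19. CD14, a co-receptor for bacterial lipopolysaccharide, was below both controls in both lines (29.5 ± 0.703 CPM in EP300 KD1 and 15.8 ± 0.361 in EP300 KD2, against 46.2 and 48.6) and was called lower (log2 difference -0.90 ± 0.07 (SE), adjusted p = 1.87e-09, NS2 minus NS1 0.068, edgeR).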
